A study of Mus musculus with 4 samples.

Results

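The replication-dependent histone genes are the clustered genes that supply the core histones H2A, H2B, H3 and H4 and the linker histone H1 to newly made DNA. They were chosen by symbol (H2ac, H2bc, H3c or H4c and a number, H1f1 to H1f6, or an older symbol of the form Hist1h to Hist4h), with no use of measured values. The choice gave 66 of the 26994 genes in the tables: 6 for H1, 18 for H2A, 17 for H2B, 12 for H3 and 13 for H4. Another 4 genes that the rule names in the RefSeq gene table (H2ac14, H2af-ps2, H2bu1-ps and H4bc24) had no row here. FPKM, fragments scaled by transcript length and by the mapped fragments of the library, was summed over the rows of each gene, and 73 rows were used.

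The study deletes the locus of the homeobox gene Evx1 and its antisense transcript in mouse embryonic stem cells and follows the cells after the cytokine LIF is taken away. The 4 libraries used here were wild-type CJ9 cells, 1 embryonic stem cell line of strain 129S4/SvJae, titled as carrying Cas9 only, with 2 libraries harvested on day 6 and 2 on day 4 after LIF was removed. All 4 share the Cas9 and the medium without LIF, so no library of undifferentiated cells is among them. The titles and harvest entries give these days, but the culture text gives 4 days without LIF for day 6 replicate 1 and 6 for day 6 replicate 2, against 2 days for day 4 replicate 1 and 6 for day 4 replicate 2, so it departs from the titles in 3 of the 4. The labels do not state whether the paired libraries of a day are separate cultures, and p-values thus reflect library-to-library spread alone, which could be technical.

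Histone mRNAs of this kind are made mostly in S phase, when DNA is replicated. Their 3′ end is cut just after a short stem-loop that the protein SLBP binds, and it carries no poly(A) tail, unlike nearly all other mRNAs. Some of these genes can also be read past the stem-loop to a poly(A) site, and such polyadenylated forms are known from differentiated cells. The libraries here were made from RNA selected on oligo(dT) beads, so a value gives the histone RNA that came through that selection and not the whole histone mRNA of the cells.

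The stem-loop was searched for as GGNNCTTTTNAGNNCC on the transcript strand, after the stop codon, in the GENCODE M21 transcripts (GRCm38). It was found in 44 of the 66 genes. In another 17 the annotated transcript ends at or soon after the stop codon and may not reach it, and in 5 it was not found. Among 55275 other genes, 45 (0.081%) held the same letters anywhere in a transcript. The lines below show it, in capitals with flanking bases in lower case, for some of these 44 genes. They include genes whose values the results turn on and 1 H3 gene.

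H1f2: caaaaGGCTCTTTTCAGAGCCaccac
H2aw: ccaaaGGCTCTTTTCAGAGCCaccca
H2ac24: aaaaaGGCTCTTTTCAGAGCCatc
H2ac11: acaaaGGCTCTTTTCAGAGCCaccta
H2bc14: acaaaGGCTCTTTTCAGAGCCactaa
H3c6: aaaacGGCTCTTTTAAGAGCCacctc
H4c4: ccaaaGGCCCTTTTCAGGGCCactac

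These windows lie at chr13:23739507-23739532 on the plus strand (H1f2), chr11:58955167-58955192 on the plus strand (H2aw), chr13:21833026-21833049 on the minus strand (H2ac24), chr13:22042478-22042503 on the minus strand (H2ac11), chr13:21722501-21722526 on the plus strand (H2bc14), chr13:23561898-23561923 on the minus strand (H3c6) and chr13:23581945-23581970 on the plus strand (H4c4). The 7 windows fall outside coding sequence, in the part of the transcript after the stop codon. These 7 genes were drawn from those where the pattern was found, so their sharing it bears on neither level nor direction. In H2ac13, H2ac15 and H2ac22 the annotated transcript may not reach the stem-loop, and in H2bc4 none was found. What differs in the annotation of the genes shown is how far the longest transcript goes on past the stem-loop: 840 bases in H1f2 and 1643 in H2aw, against 3 in H2ac24 and 23 in H2ac11. It goes on for 770 bases in H4c4, 369 in H3c6 and 46 in H2bc14. Of these, H2bc14 was higher and H3c6 lower at day 6 without overlap, and H4c4 overlapped, so length did not go with direction throughout. The deposited H1f2 and H2aw rows end at the stem-loop (23739531 and 58955192), so they do not cover the longer form.

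H2A made up most of the histone signal, and its level was set apart in 1 library. The H2A genes summed to 1933 and 1941 FPKM in day 6 replicates 1 and 2, and to 597 and 20842 FPKM in day 4 replicates 1 and 2. As a share of the FPKM of the whole library this was 0.388% in each day 6 library, against 0.132 and 4.00% in the day 4 libraries. The day 6 libraries lay close together, and the day 4 libraries lay on either side of them.

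The other classes were lower. H2B summed to 182 and 165 FPKM at day 6, against 34.8 and 187 FPKM at day 4. H3 gave 60.03 and 62.9 FPKM at day 6, against 12.5 and 178 FPKM at day 4. For H4 the sums were 121 and 144 FPKM at day 6, against 100.5 and 338 FPKM at day 4. In these 3 classes, too, both day 6 sums fell between the day 4 sums. H1, the linker histone, was the exception: it summed to 61.2 and 56.0 FPKM at day 6, against 12.7 and 18.9 FPKM at day 4, so both day 6 libraries lay above both day 4 libraries. In bulk RNA, fewer cells of a type and less RNA per cell cannot be told apart, here and in all later values.

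**Figure D1:**
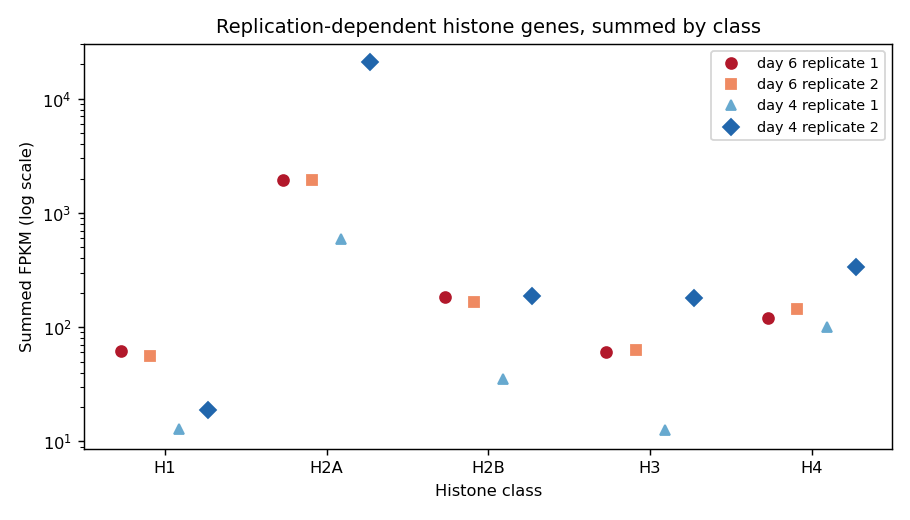
Summed FPKM of the replication-dependent histone genes by class, on a log scale, with 1 point per library (day 6 replicates 1 and 2 in red, day 4 replicates 1 and 2 in blue). H2A reaches 20842 FPKM in day 4 replicate 2, the day 6 points lie between the day 4 points for H2A, H2B, H3 and H4, and both day 6 points of H1 lie above both of day 4.

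More genes could be seen at day 6. Of the 66 genes, 53 and 54 reached 1 FPKM in day 6 replicates 1 and 2, against 40 and 50 in day 4 replicates 1 and 2. Listed at 0 were 4 and 3 genes in the day 6 libraries, against 18 and 13 in the day 4 libraries. The day 4 libraries were also shallower. The widths of the deposited intervals correspond to about 7000000 and 6240000 mapped fragments at day 6, against about 4270000 in each day 4 library. H2ac1, a testis gene, and H1f6, the testis linker histone, were listed at 0 in all 4 libraries.

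A difference between days was tested where the mean over libraries reached 1 FPKM, which 54 of the 66 genes did. None of the 54 passed (limma on log2(FPKM + 1), Benjamini-Hochberg adjusted over 11716 genes, threshold 0.05), and none of all the genes tested did (0%). Of all genes tested, 1793 (15.3%) had an unadjusted p under 0.05, 1511 of them higher and 282 lower at day 6. Among the 54 histone genes 7 had an unadjusted p under 0.05, a share near that of all genes, with 4 higher and 3 lower at day 6. An exact two-sided permutation test of 2 libraries against 2 cannot go below p = 0.333, which is the value of every named histone gene whose days did not overlap.

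Because no gene passed, the genes are described by whether their days overlap. Both day 6 values lay above both day 4 values for 11 of the 54 histone genes (20.4%), a pattern seen in 41.6% of all genes tested. Both day 6 values lay below both day 4 values for 14 (25.9%), against 11.5% of all genes tested. The remaining 29 overlapped. The median log2 difference of day 6 minus day 4 was 0.24 over the 54 histone genes and 0.51 over all genes tested. Scaling moved this split: the 14 genes lower without overlap stood beside 6 higher with median centring, 4 with quantile normalization, 9 with a GC correction and 5 with a length correction. The shares of 41.6 and 11.5% hold without these scalings, and the shares of all genes under them are not given here. These 4 counts thus have no background to be set against. The histone median was then -0.28, -0.27, -0.12 and -0.39, against -0.01, -0.02, 0.02 and 0.01 for all genes tested.

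The classes split. Of the 5 H1 genes in the test, 4 had both day 6 values on top and 1 had them below, with a median log2 difference of 1.03. By the same measure, 2 of 15 H2A genes were higher and 7 lower (median -0.75). Of 13 H2B genes, 4 were higher and 2 lower (median 0.64). Of 10 H3 genes, none was higher and 1 lower (median 0.24), and of 11 H4 genes 1 was higher and 3 lower (median -0.39). Some low genes reached the mean of 1 FPKM only through the day on which they were high, so their direction is tied to that filter. Among them are H1f5 (0.790 and 3.44 FPKM at day 6, against 0.307 and 0 FPKM at day 4) and H2bc3, both through day 6, and H2bc7 through day 4. Whether the classes differ from each other was not tested.

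**Figure D2:**
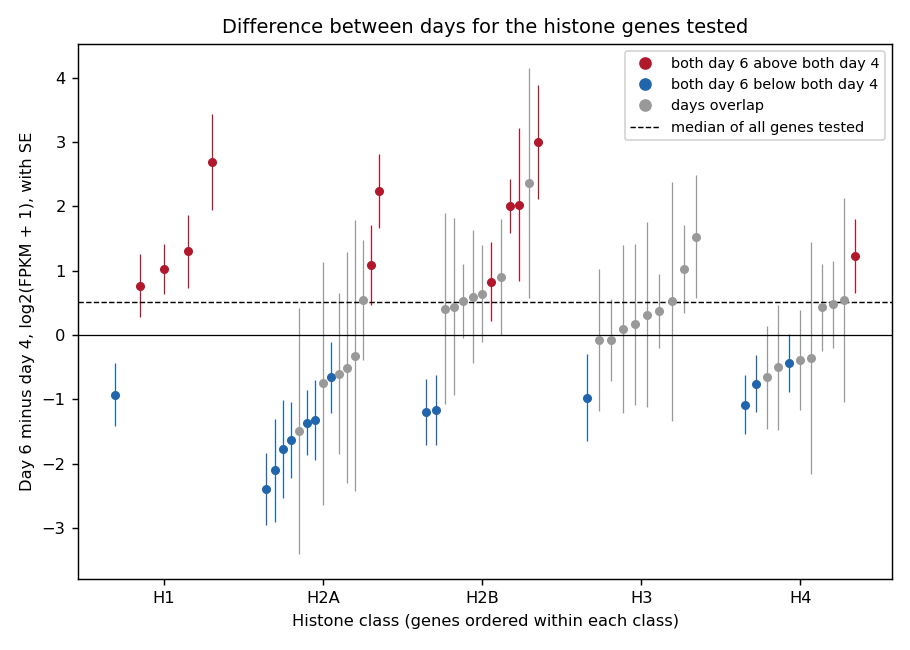
Difference of day 6 minus day 4 on the log2(FPKM + 1) scale for the 54 histone genes tested, ordered within each class, with the standard error from limma. Red points have both day 6 libraries above both day 4 libraries, blue points the reverse, and grey points overlap. The dashed line is the median of all genes tested, 0.51. H1 holds 4 red points and H2A 7 blue ones, and the longest error bars belong to genes whose day 4 libraries lie far apart.

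H2A packs with H2B into the pairs that flank the H3 and H4 tetramer of the nucleosome. The most abundant histone gene in every library was H2ac13 (formerly Hist1h2ai; chr13:21716412-21716859 of mm10, plus strand, a gene without introns). It measured 1034 and 1074 FPKM in day 6 replicates 1 and 2, against 273 and 11490 FPKM in day 4 replicates 1 and 2. Among all genes it ranked 77th in both day 6 libraries, and 240th and 4th in the day 4 libraries. Its log2 difference was -0.75 with a standard error of 1.89 (limma, adjusted p = 0.860), so the spread between the day 4 libraries exceeded the difference between days.

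The same order of libraries held for 4 more H2A genes. H2ac24 measured 274 and 232 FPKM at day 6, against 105 and 4774 FPKM at day 4. H2ac22 measured 243 and 259 FPKM at day 6, against 59.8 and 2100 FPKM at day 4. H2ac15 and H2ac23 are added here after their values were seen. H2ac15 had 152 and 143 FPKM at day 6, against 21.6 and 1519 FPKM at day 4, and H2ac23 had 154 and 179 FPKM at day 6, against 75.7 and 833 FPKM at day 4. Within day 4, replicate 2 was 42.0-fold above replicate 1 for H2ac13, 45.5-fold for H2ac24, 35.1-fold for H2ac22, 70.2-fold for H2ac15 and 11-fold for H2ac23. The 5 genes together held 96.1 and 97.2% of the H2A FPKM at day 6, against 89.8 and 99.4% at day 4. Of these 5, H2ac13 alone gave 55.7 and 56.9% at day 6 and 51.1 and 55.5% at day 4, so its share among them stayed within a narrow range while their sum did not.

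Several properties of the values moved with this gap and bear on how the 5 genes are read. Their coding sequences hold 68.4 to 70.0% G and C, and genes rich in G and C were in general higher in day 4 replicate 2 than in replicate 1: over the 698 genes tested with 60% or more, the median gap was 1.56 log2 units. This limit and the correction below used the GC content of an annotated transcript, which can include bases outside the coding sequence. After a correction for GC content the gap between the day 4 libraries was 2.78 log2 units for H2ac13, against 5.39 before it. It was 3.54 for H2ac24, 2.62 for H2ac22, 3.64 for H2ac15 and 1.54 for H2ac23. A gap in the same direction was still there in all 5. For 3 low H2A genes with coding sequences of 68.7 to 70.0% G and C the gap turned: it was 1.90 before and -0.53 after the correction for H2ac10, 1.06 and -0.86 for H2ac11, and 1.25 and -1.12 for H2ac12. The part of GC content in these values beyond that correction was not tested.

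RNAs that have no poly(A) tail at all also differed between the day 4 libraries. Rmrp, the RNA of the RNase MRP enzyme, measured 97.4 and 138 FPKM at day 6, against 17.95 and 279 FPKM at day 4. Rpph1, the RNA of RNase P, measured 53.6 and 111 FPKM at day 6, against 21.97 and 134 FPKM at day 4. Both had the order of libraries seen for H2ac13, with day 4 replicate 1 lowest and day 4 replicate 2 highest. The other measured RNAs of that list were low: Terc, the telomerase RNA, had 2.93 and 1.45 FPKM at day 6, against 0 and 1.70 FPKM at day 4, and Vaultrc5, a vault RNA, had 2.67 and 5.54 FPKM at day 6 and was listed at 0 in both day 4 libraries. Over these 4 RNAs the median gap of day 4 replicate 2 over replicate 1 was 1.99 log2 units, and 0.07 after the GC correction. The part of RNA without a poly(A) tail in the histone values was not tested.

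The values of single H2A copies depend on how the authors assigned reads among near-identical genes, a step for which the sources used here give no method. Among the 5 genes above, coding sequences of 393 bases differed at 0 to 15 positions, and H2ac23 and H2ac24 are the same in their coding bases. The tables also placed the H2ac23 and H2ac24 transcripts at both copies, at chr13:21810367-21810918 and chr13:21833024-21833575. Summed by place, the copy at 21810367 had 237 and 244 FPKM at day 6, against 102 and 3056 FPKM at day 4. The copy at 21833024 had 190 and 167 FPKM at day 6, against 78.4 and 2551 FPKM at day 4. Both places kept the order of libraries of H2ac13. The H2ac24 rows carry a low-data status in the deposited tables. For H2ac13 the deposited FPKM lies above its own deposited interval, which runs from 653 to 724 in day 6 replicate 1, and short rows share this: rows under 600 bases had a median FPKM of 1.32 and 1.34 times the middle of their interval at day 6, against 1.31 and 1.30 times at day 4.

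A second set of H2A genes was lower at day 6, with no overlap of the days. H2ac11 (chr13:22042478-22042949, minus strand) measured 2.55 and 1.84 FPKM at day 6, against 10.5 and 23.1 FPKM at day 4. Its log2 difference was -2.39 with a standard error of 0.55 (limma, adjusted p = 0.267). H2ac7 measured 3.46 and 0.306 FPKM at day 6, against 6.19 and 13.9 FPKM at day 4 (log2 difference -2.10). Both genes sit in the chromosome 13 clusters, and neither pair of days overlapped.

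H2ac10 measured 2.59 and 2.23 FPKM at day 6, against 5.02 and 21.5 FPKM at day 4 (log2 difference -1.77). H2ac12 measured 3.86 and 3.17 FPKM at day 6, against 8.02 and 20.4 FPKM at day 4 (log2 difference -1.63). Adjusted p from limma was 0.319 for H2ac12, 0.330 for H2ac7 and 0.363 for H2ac10. The other H2A genes with this pattern, H2ac8, H2ac6 and H2ac4, had log2 differences of -1.36, -1.33 and -0.66 and were picked out after their values were seen. H2ac4 was near a tie, with 7.22 and 5.98 FPKM at day 6, against 7.29 and 16.2 FPKM at day 4. Counting it, 7 of the 10 H2A genes tested outside the 5 abundant ones were lower at day 6 without overlap. This is 70%, against 11.5% of all genes tested, with a median log2 difference of -1.34 over the 10. This split of the H2A genes was made after the values were seen, and it set aside 5 genes whose days all overlapped. Of H2ac11, H2ac7, H2ac10, H2ac6 and H2ac8, each differs from the 5 abundant genes at only 3 to 14 of 393 coding bases, so a small share of reads assigned to the wrong copy would weigh on these low values, and that share is not known.

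**Figure D3:**
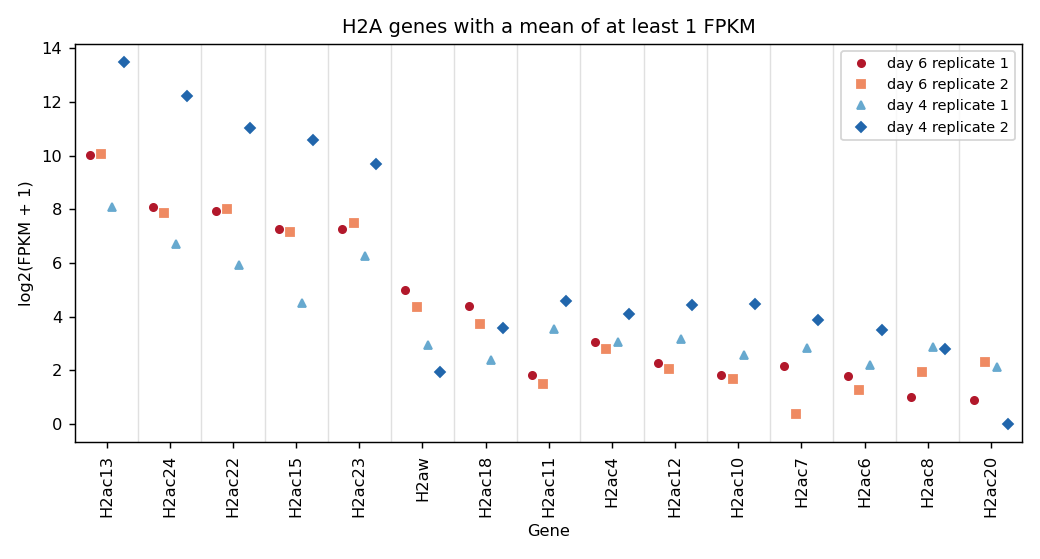
Level of the 15 H2A genes that averaged 1 FPKM or more, as log2(FPKM + 1), with 1 point per library (day 6 in red, day 4 in blue). In the 5 genes at the left day 4 replicate 2 lies far above and day 4 replicate 1 below the day 6 points, whereas in H2ac11, H2ac12, H2ac10, H2ac7, H2ac6 and H2ac8 both day 6 points lie below both day 4 points, and in H2aw and H2ac18 above them.

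H2aw (formerly Hist3h2a; chr11:58954685-58955192, plus strand), an H2A gene outside the large clusters, went the other way. It measured 31.2 and 19.4 FPKM at day 6, against 6.67 and 2.87 FPKM at day 4. The log2 difference was 2.24 with a standard error of 0.57 (limma, adjusted p = 0.269). H2ac18, on chromosome 3, was the other H2A gene higher at day 6 without overlap, with 20.1 and 12.3 FPKM at day 6, against 4.16 and 10.98 FPKM at day 4.

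Promoters of histone genes carry CCAAT boxes and, in some, TATA boxes and octamers. The letters CCAAT (either strand, in the RefSeq windows of build GRCm38.p6 that run from 250 bases before to 50 after the start) stood in all 6 H1, 18 H2A, 16 H2B and 10 H3 promoters with a sequence, in 3 of 12 H4 promoters, and in 37.41% of all 32851 promoters. The octamer ATTTGCAT stood in 7 of 18 H2A and 7 of 16 H2B promoters, in none of the H1, H3 and H4 promoters, and in 1.74% of all promoters. TATAAA stood in 4 of 6 H1, 11 of 18 H2A, 8 of 16 H2B, 4 of 10 H3 and 8 of 12 H4 promoters, and in 13.62% of all. The 250 bases before the start are shown for the most abundant H2A gene, for the H2A gene with the most negative difference without overlap and for the H1 gene with the highest mean, with CCAAT and its reverse complement in capitals.

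H2ac13: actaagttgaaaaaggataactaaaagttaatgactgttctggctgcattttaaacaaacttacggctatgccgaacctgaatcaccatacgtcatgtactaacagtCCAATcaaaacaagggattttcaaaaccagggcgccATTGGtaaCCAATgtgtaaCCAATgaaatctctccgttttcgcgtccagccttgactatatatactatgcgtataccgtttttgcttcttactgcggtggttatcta
H2ac11: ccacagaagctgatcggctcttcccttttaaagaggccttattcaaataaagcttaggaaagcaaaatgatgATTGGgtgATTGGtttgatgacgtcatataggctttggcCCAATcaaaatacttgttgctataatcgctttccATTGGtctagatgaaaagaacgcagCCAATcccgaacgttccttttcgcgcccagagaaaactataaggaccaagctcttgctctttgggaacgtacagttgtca
H1f2: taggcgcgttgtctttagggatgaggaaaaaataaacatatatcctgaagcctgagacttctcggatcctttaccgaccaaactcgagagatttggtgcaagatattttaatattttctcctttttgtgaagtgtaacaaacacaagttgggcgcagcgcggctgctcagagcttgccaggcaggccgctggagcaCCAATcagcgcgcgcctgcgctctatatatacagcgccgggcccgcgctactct

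The windows are chr13:21716162-21716411 on the plus strand for H2ac13, chr13:22042950-22043199 on the minus strand for H2ac11 and chr13:23738557-23738806 on the plus strand for H1f2. They hold 4, 5 and 1 copies of the CCAAT letters in that order of genes. H2ac13 and H2ac11 thus carry similar numbers of these letters, although their levels differ by far. Nothing about binding of a factor follows from the letters.

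Many H2A and H2B genes share 1 short promoter and are read in opposite directions from it. Among the genes with promoter sequences, 9 such pairs had start sites 164 to 281 bases apart. H2bc13, the partner of H2ac13 at chr13:21715713-21716143, measured 52.1 and 43.9 FPKM at day 6, against 10.7 and 57.8 FPKM at day 4. The ratio of H2ac13 to H2bc13 was 19.9 and 24.5 at day 6, and 25.6 and 199 at day 4. For H2ac22 and its partner H2bc22 the ratio was 23.99 and 26.5 at day 6, and 22.3 and 169 at day 4. In both pairs the ratio lay between 19.9 and 26.5 in 3 of the 4 libraries, and in day 4 replicate 2 the H2A gene stood far higher while its H2B partner stood somewhat above its day 6 level. H2ac23 and H2bc23 differed from them in the named rows. Their ratio was 91.05 and 180.1 at day 6, where H2bc23 had 1.69 and 0.996 FPKM. H2bc23 was listed at 0 in both day 4 libraries. Unnamed rows of 381 bases lie inside its copies and were not summed into it, so this ratio leaves them out. The unnamed row at 21809791 had 12.1 and 7.24 FPKM at day 6, against 0 and 5.47 FPKM at day 4. The one at 21833771 had 5.83 and 2.585 FPKM at day 6, against 0.869 and 1.82 FPKM at day 4.

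H2bc15, the partner of H2ac15, measured 29.0 and 30.0 FPKM at day 6, and was listed at 0 and given as 34.1 FPKM in day 4 replicates 1 and 2. The ratio of H2ac15 to H2bc15 was 5.26 and 4.77 at day 6, and 44.6 in day 4 replicate 2. The pairs of low H2A genes had other ratios: H2ac11 to H2bc11 gave 0.406 and 0.539 at day 6, and 1.35 in day 4 replicate 2, where both genes are given. These pairs were picked out after their values were seen.

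**Figure D4:**
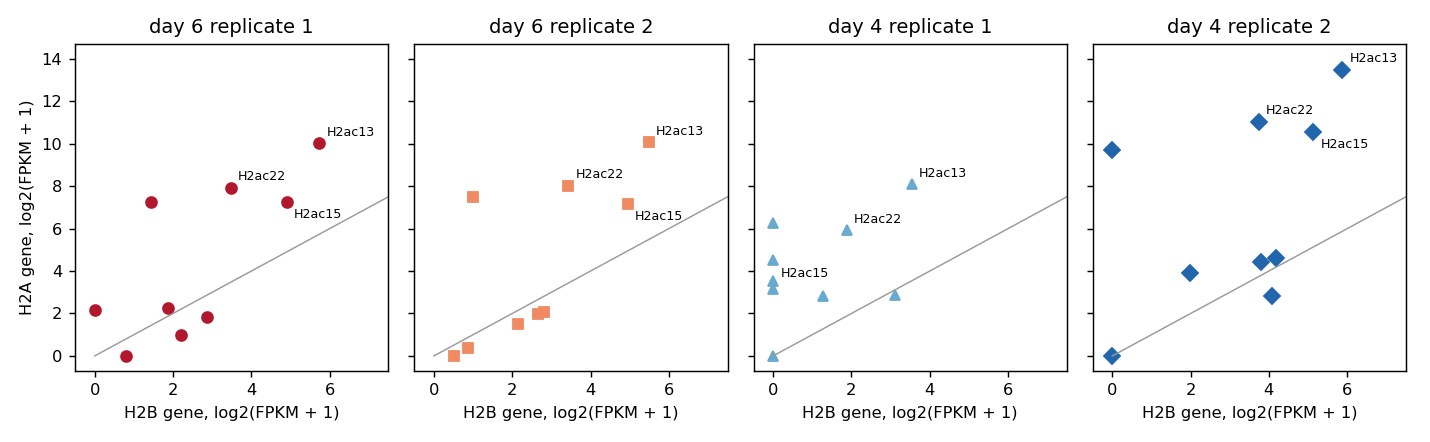
Level of the H2A gene against the level of the H2B gene in 9 divergent pairs, both as log2(FPKM + 1), in 1 panel per library, with a grey line where both are equal and with a different scale on each axis. H2ac13, H2ac22 and H2ac15 lie far above the line in day 4 replicate 2, where H2ac13 exceeds H2bc13 by a ratio of 199, against 19.9 and 24.5 at day 6.

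H2B genes with higher values at day 6 included 1 with an unusual transcript. H2bc4 (formerly Hist1h2bc; chr13:23684199-23692480) measured 34.0 and 23.6 FPKM at day 6, against 0.684 and 7.01 FPKM at day 4. Its log2 difference of 2.999 (standard error 0.88; limma, adjusted p = 0.288) was the largest among the histone genes tested. Most genes of the group have no intron, but the deposited H2bc4 transcript of 728 bases is spliced from a span of several kilobases, and no stem-loop was found in the annotated transcript, which has 742 bases after the stop codon.

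H2bc14 measured 25.1 and 20.7 FPKM at day 6, against 0.869 and 17.3 FPKM at day 4. Its log2 difference was 2.02 with a standard error of 1.19 (limma, adjusted p = 0.459), since the day 4 libraries lay far apart. It was 0.38 without day 4 replicate 1 and 3.67 without day 4 replicate 2. H2bc3 measured 2.11 and 4.17 FPKM at day 6 and was listed at 0 in both day 4 libraries (limma, adjusted p = 0.267). It reached the mean needed for the test through its day 6 values alone. H2bc13 and H2bc15, the H2B genes with the highest means over the 4 libraries, overlapped between days (log2 differences 0.90 and 2.36, with standard errors of 0.90 and 1.78). Lower without overlap were H2bc7 and H2bc8, both added after their values were seen, with log2 differences of -1.19 and -1.16. H2bc7 reached the mean needed for the test through its day 4 values.

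H1 binds the DNA between nucleosomes. H1f2 (H1.2, formerly Hist1h1c; chr13:23738807-23739531, plus strand) measured 51.0 and 38.2 FPKM at day 6, against 2.75 and 11.98 FPKM at day 4. Its log2 difference was 2.69 with a standard error of 0.75 (limma, adjusted p = 0.288). It gave most of the H1 sum in both day 6 libraries and in day 4 replicate 2, but 2.75 of 12.7 FPKM in day 4 replicate 1. H1f3 measured 4.71 and 5.22 FPKM at day 6, against 1.89 and 1.94 FPKM at day 4 (log2 difference 1.03; limma, adjusted p = 0.329). For H1f4 the values were 3.70 and 7.38 FPKM at day 6, against 2.81 and 2.56 FPKM at day 4 (log2 difference 0.77; limma, adjusted p = 0.481), and the difference was 0.35 without day 6 replicate 2 and 1.19 without day 6 replicate 1. H1f3 is 1 of the few histone genes whose day 4 libraries were close together. H1f5 was also higher (log2 difference 1.30) and H1f1 lower (-0.93) at day 6 without overlap, both named after their values were seen. H1f5 reached the mean needed for the test through its day 6 values.

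H3 and H4 form the tetramer at the heart of the nucleosome, and the days overlapped for 9 of the 10 H3 genes and 7 of the 11 H4 genes tested. H3c10 measured 9.42 and 18.5 FPKM at day 6, against 0.589 and 61.0 FPKM at day 4. H3c11 measured 14.2 and 18.4 FPKM at day 6, against 3.59 and 50.2 FPKM at day 4. H3c8 measured 3.90 and 4.49 FPKM at day 6, and was listed at 0 and given as 16.3 FPKM in day 4 replicates 1 and 2. In all 3 the days overlapped, with log2 differences of 0.52, 0.16 and 0.32 and standard errors of 1.86, 1.25 and 1.44. The sign of these differences turned with the scaling: median centring gave -0.35 for H3c11 and -0.20 for H3c8, and a length correction gave -0.11 for H3c10.

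H4c12, the H4 gene with the highest mean over the 4 libraries, measured 22.3 and 27.1 FPKM at day 6, against 13.9 and 87.2 FPKM at day 4. H4c11 measured 19.3 and 29.9 FPKM at day 6, against 16.3 and 61.3 FPKM at day 4. H4c4 measured 5.71 and 20.9 FPKM at day 6, against 1.85 and 84.3 FPKM at day 4. The log2 differences of these 3 genes were -0.50, -0.39 and -0.36, with standard errors of 0.97, 0.78 and 1.80, and the days overlapped in each. H4c1, H4c6 and H4c18 were lower and H4c14 higher, again without overlap, with log2 differences of -1.08, -0.76, -0.43 and 1.23, and were singled out after their values were seen.

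**Figure D5:**
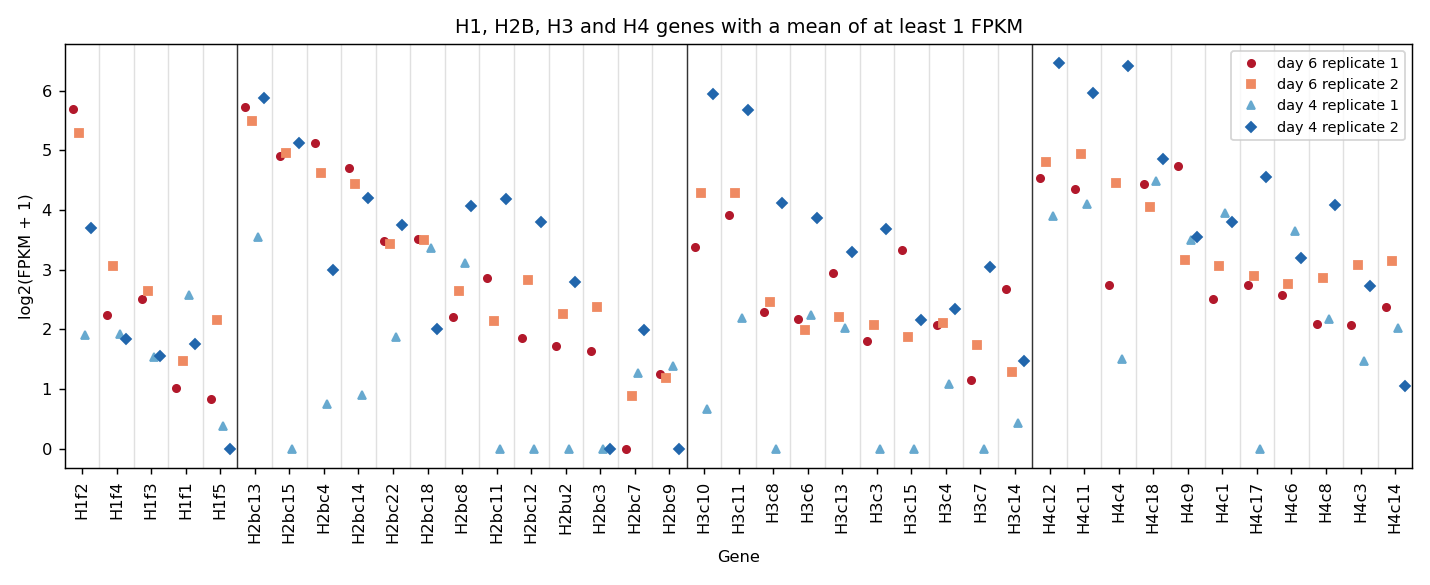
Level of the H1, H2B, H3 and H4 genes that averaged 1 FPKM or more, as log2(FPKM + 1), with 1 point per library (day 6 in red, day 4 in blue) and black lines between classes. H1f2 and H2bc4 have both day 6 points above both day 4 points, while in H3c10, H3c11, H4c12 and H4c4 the day 6 points lie between the day 4 points.

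How far the 2 day 4 libraries stood apart can be counted. Day 4 replicate 2 was the highest of the 4 libraries for 33 of the 54 histone genes tested (61.1%) and for 23.7% of all genes tested. Day 4 replicate 1 was the lowest for 30 (55.6%), against 33.4% of all genes. Both day 6 values lay between the day 4 values, with replicate 2 on top, for 22 histone genes (40.7%), against 14.7% of all genes. By class this was 7 of 10 H3 genes, 6 of 13 H2B, 5 of 15 H2A, 4 of 11 H4 and none of 5 H1 genes.

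The result between days therefore turned on which day 4 library was kept. Without day 4 replicate 1, the median log2 difference was -1.1 over the 54 histone genes, against 0.662 over all genes tested. Without day 4 replicate 2, it was 1.1 over the histone genes, against 0.375 over all genes tested. In such a fit the lone day 4 library takes its spread from the day 6 libraries, so only the size of the differences is given. Both fits share the day 6 libraries. H2ac13 had a log2 difference of -3.45 without day 4 replicate 1 and 1.94 without day 4 replicate 2. For H1f2 the values were 1.80 and 3.59, and for H2ac11 -2.93 and -1.86.

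The genes lie in 2 stretches of chromosome 13 and in smaller groups elsewhere. The stretch from 21715713 to 22043658 holds 22 genes, and the one from 23531044 to 23934913 holds 31. The first gave 89.4 and 90.1% of the histone FPKM at day 6, against 83.8 and 98.5% at day 4. Of its 21 tested genes, 2 were higher (9.52%) and 3 lower (14.3%) by this measure. In the second, 5 of 24 were higher (20.8%) and 11 lower (45.8%), with a median log2 difference of -0.51. The chromosome 3 group had 3 of 7 tested genes higher (42.9%) and none lower, with a median of 1.03. All genes tested had 41.6% higher and 11.5% lower. No test was made between the groups.

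Genes with a long annotated 3′ end were described apart, by a limit set after the values were seen. Of the 66 genes, 21 have a GENCODE transcript with 300 or more bases after the stop codon, and 17 of them were tested: 6 lay higher and 2 lay lower on both day 6 libraries, with a median log2 difference of 0.52. Of the 37 tested genes with fewer bases, 5 were higher and 12 lower, with a median of -0.32. These are shares of 35.3% higher and 11.8% lower in the long group and 13.5% and 32.4% in the other. Over all genes tested the shares were 41.6% and 11.5% and the median 0.51, so the long group as a whole stood close to all genes. The groups also differ in class, and length was not separated from class. In the long group all 3 H1 genes were higher and none of the 5 H3 genes was. In the other group 13 of the 37 were H2A genes, and 6 of these were lower. H1f2, H1f3, H1f4, H2aw, H2bc4 and H4c14 were the 6 with a long 3′ end that were higher. A long annotation does not show that the long form was made in these cells, since the rows do not separate the forms.

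Genes that read, process and place histones showed no shared direction. SLBP binds the stem-loop, and Slbp measured 35.7 and 36.7 FPKM at day 6, against 39.9 and 41.4 FPKM at day 4 (log2 difference -0.16; limma, adjusted p = 0.865). NPAT turns on histone genes in S phase, and Npat measured 5.85 and 5.39 FPKM at day 6, against 5.52 and 0.110 FPKM at day 4. Of 28 genes for histone transcription and 3′ processing, 8 were higher and 8 lower without overlap (28.6% each, against 41.6 and 11.5% of all genes tested; median log2 difference -0.11). Higher among them were Lsm10, a part of the U7 particle that cuts histone mRNA, with 26.2 and 21.6 FPKM at day 6, against 4.95 and 4.39 FPKM at day 4, and Cdk2, the S phase kinase, with 34.1 and 32.5 FPKM at day 6, against 11.7 and 11.5 FPKM at day 4. Their adjusted p from limma was 0.267 and 0.288, so neither passed.

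Of 24 histone chaperone genes, 4 were higher (16.7%) and 3 lower (12.5%) without overlap (median 0.24). Asf1b, a chaperone of new H3 and H4, measured 18.2 and 21.2 FPKM at day 6, against 2.58 and 4.54 FPKM at day 4 (log2 difference 2.21; limma, adjusted p = 0.267). Of 41 DNA replication genes, 14 were higher (34.1%) and 3 lower (7.32%), with a median of 0.45. Pcna, the sliding clamp, measured 113 and 107 FPKM at day 6, against 163 and 66.2 FPKM at day 4, and Tk1, a thymidine kinase, measured 45.5 and 43.3 FPKM at day 6, against 9.19 and 6.91 FPKM at day 4. Pcna had the reverse order of the day 4 libraries from H2ac13. Of 20 mitotic genes, 6 were higher (30%) and 1 lower (5%), with a median of 0.76. Of 9 D cyclin and CDK inhibitor genes, 4 were higher (44.4%) and 2 lower (22.2%), with a median of 0.90. Except for the D cyclins and CDK inhibitors, each of these lists had a smaller share higher than the 41.6% of all genes tested. Cdkn1c, an inhibitor of the cell cycle, measured 234 and 326 FPKM at day 6, against 84.3 and 52.2 FPKM at day 4, and Ccnd1, cyclin D1, measured 16.02 and 14.5 FPKM at day 6, against 73.5 and 74.0 FPKM at day 4. Neither passed (limma, adjusted p = 0.270 and 0.267).

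Replacement histones are made outside S phase as well, mostly from ordinary polyadenylated mRNAs. Whether that holds for each gene below, H2ax among them, was not tested. Without overlap, 1 of 11 was higher and 1 lower (9.09% each, against 41.6 and 11.5% of all genes tested), with a median log2 difference of 0.09. H2az1 (H2A.Z) was the lower one, with 214 and 204 FPKM at day 6, against 288 and 767 FPKM at day 4 (log2 difference -1.17; limma, adjusted p = 0.449). H3f3a, a gene for H3.3, measured 450.4 and 447 FPKM at day 6, against 135 and 584 FPKM at day 4. H3f3b, the other H3.3 gene, measured 200.2 and 190.1 FPKM at day 6, against 137 and 268 FPKM at day 4. H1f0, the linker histone of resting cells, measured 41.5 and 69.4 FPKM at day 6, against 29.9 and 63.9 FPKM at day 4. In H3f3a and H3f3b, as in H2ac13, day 4 replicate 1 was lowest and day 4 replicate 2 highest. H1f10 and H2ax, named after their values were seen, had the same order. H1f10, a replacement linker histone, had 49.5 and 86.6 FPKM at day 6, against 19.4 and 235 FPKM at day 4. H2ax, the H2A variant phosphorylated at DNA breaks, had 353 and 329 FPKM at day 6, against 99.5 and 644 FPKM at day 4.

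Markers of cell types also differed in value between the libraries of the 2 days, although no marker passed the test. Of 8 pluripotency markers, Pou5f1 (Oct4) measured 54.9 and 42.0 FPKM at day 6, against 368 and 376 FPKM at day 4, and the list summed to 123 and 104 FPKM at day 6, against 672 and 497 FPKM at day 4. Pou5f1 made up most of that sum in both day 4 libraries, but not in the day 6 libraries. By the days, 4 of the 8 markers (Zfp42, Dppa3, Esrrb and Klf4) were higher and 3 lower without overlap, with a median log2 difference of -0.22. Zfp42, a marker of naive stem cells, had 21.4 and 24.9 FPKM at day 6, against 20.6 and 6.16 FPKM at day 4. The 7 streak and mesoderm markers summed to 210.4 and 364 FPKM at day 6, against 321 and 581 FPKM at day 4. Of these, 4 were lower and 3 higher (Hand1, Kdr and Pdgfra), with a median log2 difference of -3.35. Hand1, a factor of lateral and extraembryonic mesoderm, had 181 and 329 FPKM at day 6, against 73.8 and 36.6 FPKM at day 4. Evx1 measured 4.88 and 4.91 FPKM at day 6, against 12.1 and 133 FPKM at day 4. The 7 endoderm markers summed to 648 and 563 FPKM at day 6, against 373 and 127 FPKM at day 4, with Afp listed at 0 throughout. Most of that sum was Sparc, with 593 and 479 FPKM at day 6, against 358 and 112 FPKM at day 4. The 7 fibroblast markers summed to 142 and 271 FPKM at day 6, against 9.84 and 8.39 FPKM at day 4, and the 5 erythroid markers to 225 and 837 FPKM at day 6, against 0 and 1.46 FPKM at day 4. The 4 oocyte and spermatid markers summed to 0.209 and 0.309 FPKM at day 6, against 0.337 and 1.68 FPKM at day 4, with the spermatid genes Prm1 and Tnp1 listed at 0 in all libraries. The part of these cell types in the histone values was not tested.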

How the data were processed

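RNA-seq of 4 wild-type libraries was used, 2 at day 6 and 2 at day 4, grouped by their titles. Per the labels' protocols, oligo(dT) Dynabeads were used to select poly(A) RNA, and a TruSeq Stranded mRNA kit to build the libraries. CASAVA and TopHat2 2.0.11 with build mm10 are named, per the submitters' processing notes. Which quantifier and annotation were used, and how strand and multiply mapped reads were treated, is not stated: not given in the sources used here. The authors deposited FPKM per transcript row with lower and upper FPKM bounds, and a coverage signal that was used only to describe depth. Each table has 35656 rows, matched between libraries by ID, place and length. The tables hold no counts, so depth was estimated from the deposited interval widths, which cover counting error only.

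Symbols came from the RefSeq gene table of GRCm38.p6 and GENCODE M21, which named 95.5% of rows. FPKM was summed per symbol. Genes whose mean reached 1 FPKM (11716) were tested with limma 3.58.1 in R 4.3.3 on log2(FPKM + 1), pseudocount 1 FPKM, two-sided, with trended empirical Bayes variances, Benjamini-Hochberg adjustment, a threshold of 0.05 and no replicate block. Differences on this scale understate the change of low genes. The fit was tested on simulated data. Sums and lists got counts and medians with no test.

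The rule for the members names symbols and uses no measured value, but the rule and the lists were chosen with earlier results of these data known. Named genes are the 3 with the highest mean per class, the 4 largest differences in each direction without overlap, members listed at 0 at 1 day and at 1 FPKM or more at the other, the leading genes of each list, and 8 fixed genes. Alternatives were another pseudocount (0.1), no filter or a mean of at least 5 FPKM, median centring, quantile normalization, corrections for GC content or length (loess, span 0.3), a replicate block, no trend, and leaving out each library.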

Additional observations from a re-analysis of the deposited data

How the results depend on the processing

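The values are limited by 2 libraries a day, by day 4 libraries that lie far apart and are shallower, and by near-identical gene copies. Histone genes higher at day 6 without overlap numbered 11, against 6 with a mean of at least 5 FPKM (of 36 tested), 6 with median centring, 4 with quantile normalization and 5 with a length correction. Genes lower without overlap stayed within 1.5 times of 14 in these 4 settings. Shares over all genes tested in the same settings are not given here. Median centring, which moves the median of all genes by about 0.51 (log2), gave -0.35 for H3c11 and -0.20 for H3c8, quantile normalization gave -0.15 and -0.27, and a length correction gave -0.47 and -0.31 and -0.11 for H3c10, so the sign of each was reversed. The day 6 minus day 4 difference of the H1 share was 0.00934 percentage points without the 10 most abundant rows. The list medians moved for histone transcription and 3′ processing to -0.63 with median centring and -0.58 with quantile normalization. They moved for DNA replication to -0.07 with median centring, 0.10 with quantile normalization and -0.16 with a GC correction, and for D cyclins and CDK inhibitors to 0.39 with median centring and 0.26 with a GC correction. With median centring, quantile normalization and a GC correction, in that order, the median was -0.28, -0.05 and -0.35 for chaperones (0.24 as reported), -0.43, -0.08 and -0.36 for replacement histones (0.09), 0.25, 0.37 and 0.28 for mitosis (0.76), and 0.28, 0.51 and 0.94 for RNAs without a poly(A) tail (0.80). The cause was not tested in any of these. With a replicate block 67 genes of 11716 and 0 histone genes passed. The replicate numbers share only a number: the correlation of same-numbered deviations was -0.0904. With the middle of the deposited interval in place of FPKM, chosen after seeing the data, 11 genes were higher and 14 lower, as before.

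Leaving out 1 library at a time, histone genes that passed numbered 0 to 36, genes higher 13 to 36 and genes lower 15 to 37, and genes called overall 0 to 7837. The log2 difference ran from -3.45 to 1.94 for H2ac13, -4.24 to 1.26 for H2ac24, -3.06 to 2.05 for H2ac22, -0.27 to 2.06 for H2bc13, -0.20 to 4.93 for H2bc15, -2.12 to 3.17 for H3c10, -1.58 to 1.90 for H3c11, -1.74 to 2.37 for H3c8, -1.78 to 0.78 for H4c12, -1.31 to 0.54 for H4c11 and -2.82 to 2.09 for H4c4. The lowest came without day 4 replicate 1 and the highest without day 4 replicate 2. Every count above 0 of genes that passed or were called came from these same fits. In them the lone day 4 library takes its spread from the day 6 libraries. No conclusion is drawn from those counts, and only the sizes of the differences are read. List medians ran from -0.10 to 0.46 for histone transcription and 3′ processing, -0.33 to 1.01 for chaperones, -0.46 to 0.68 for replacement histones, 0.11 to 0.72 for DNA replication, -0.15 to 2.20 for mitosis, -0.29 to 2.03 for RNAs without a poly(A) tail and 0.24 to 1.59 for D cyclins and CDK inhibitors.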
